A study of Rattus norvegicus with 6 samples.

Results

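Transcripts of DNA repair genes were examined in RNA recovered by antisense pull-down from GH4C1 cells. The genes were taken by name: the Xrcc, Rad, Ercc, Msh, Mlh and Fanc series, the DNA ligases Lig1, Lig3 and Lig4, and Brca1, Brca2, Polb, Apex1, Atm, Atr, Mre11a, Nbn, Prkdc and Tp53bp1. This rule found 65 of the 32883 genes in the table, and 57 of them had enough counts to be tested. GH4C1, an established line from rat pituitary that makes growth hormone and prolactin, is labelled wild type and was grown in HamF10 medium with horse and fetal calf serum. In all 6 samples living cells had been exposed to psoralen, which crosslinks base-paired nucleic acid strands, and RNA was retrieved with oligonucleotides from pool A in 3 libraries and from pool B in the other 3. The study sought RNAs in direct contact with Neat1, the long noncoding RNA on which the nuclear bodies called paraspeckles are built. The labels do not say which sequences each pool holds or whether a pool was a control. RNA from before the pull-down and uncrosslinked cells were not analysed here, so what each pool recovered cannot be set against the amount of a transcript in the cell.

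DNA repair is divided among pathways that each deal with a kind of lesion. Base excision repair replaces single damaged bases, nucleotide excision repair cuts out short stretches around bulky adducts, and mismatch repair corrects replication errors. Broken chromosomes are rejoined by end joining or copied from the sister chromatid by homologous recombination, crosslinked strands are released by the Fanconi anaemia pathway, and the kinases ATM and ATR signal the damage to the cell cycle. Psoralen crosslinks are themselves a lesion that several of these pathways process. The encoded proteins mostly work as complexes, whereas the measurement here concerns their messenger RNAs.

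Total counts per library were between 1826390 and 3685899, and the 65 genes together held between 6764 and 13125 of them. Their share with pool A was 0.376% ± 0.034 (SD, n = 3), that with pool B was 0.353% ± 0.023 (SD, n = 3), and the ranges overlapped. The 5 genes listed for lactosomatotroph cells were Prl, Gh1, Pou1f1 and the granin genes Chgb and Scg2. All had at least 10 counts in every library. Of 6 markers of other pituitary lineages, the thyrotroph and gonadotroph hormone genes Tshb and Fshb were at 0 in all 6 libraries, whereas the gonadotroph hormone gene Lhb had 39, 23 and 51 counts with pool A and 120, 73 and 119 with pool B (log2 fold change -1.68; edgeR adjusted p 1.99e-05). Tbx19 had between 5 and 21 counts in a library and did not pass (-0.56). Pomc, with 0 to 11 counts, was not tested. Nr5a1 had 6, 3 and 0 counts with pool A and 10, 6 and 8 with pool B, and was not tested either. Ptprc, the highest of 3 markers of other cells, had 6, 1 and 18 counts with pool A and 0 in each pool B library. The summed level of the 5 lactosomatotroph genes was mostly Chgb. It lay between 6444 and 7119 CPM (counts scaled to a common library total) with pool A and between 29530 and 36550 CPM with pool B. Of the 5, Chgb alone was called higher with pool B (-2.94), Prl (0.83) and Scg2 (0.77) were higher with pool A, and Gh1 and Pou1f1 did not pass. The part of these differences in the results on repair genes was not tested.

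The pools differed in both directions across the repair genes. At an adjusted p below 0.05 from the quasi-likelihood test of edgeR, 16 of the 57 tested genes were higher with pool A, 11 favoured pool B, and 30 did not pass. Among all 11582 genes tested, 40.6% passed, 18.6% on the pool A side and 22% on the pool B side. The repair genes' 47.4% was made up of 28.1% and 19.3%. Their share on the pool B side lay near that of all genes and their share on the pool A side lay above it, a difference that was not tested. Past that threshold, differences of at least 2-fold were seen for 10 genes in favour of pool A and for 3 in favour of pool B, where all genes gave 11.1% and 14.2%. Libraries of one pool all lay above those of the other for 28 of the 57, 16 for pool A and 12 for pool B, beside 49.1% of all genes (18.9% and 30.2%). The median log2 fold change of pool A over pool B was 0.14, with the middle 50% between -0.21 and 0.86, and that of all genes was 0.02. With total counts as the only scaling these medians were -0.02 and -0.13. The number higher with pool B was 6 without pool A replicate 1.

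**Figure D1:**
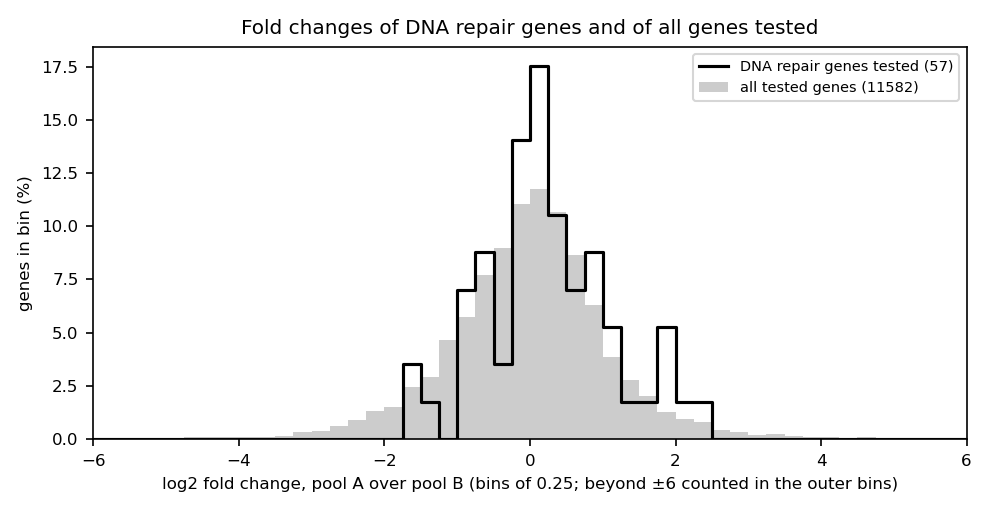
Share of genes (%) in bins of the log2 fold change of pool A over pool B, for the 57 tested DNA repair genes (black line) and for all 11582 tested genes (grey bars). The repair genes lie between -1.66 and 2.29, inside the spread of all genes.

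**Figure D2:**
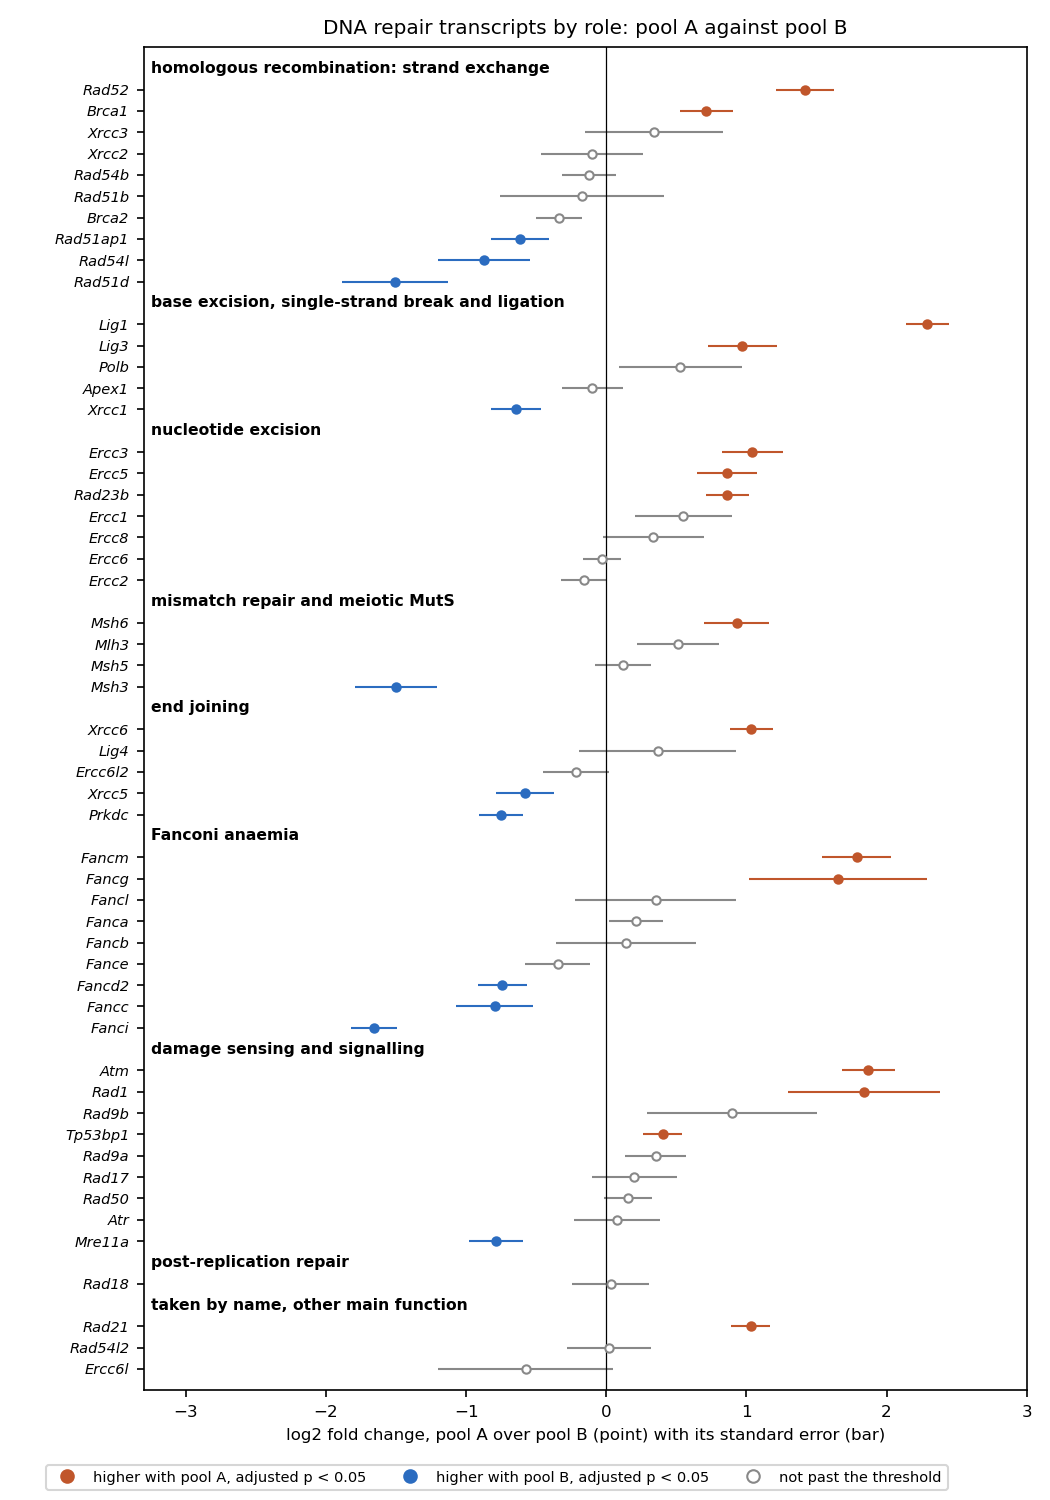
Log2 fold change of pool A over pool B for 53 of the 57 tested DNA repair genes (points) with its standard error (bars), grouped by role; filled points passed the test at an adjusted p below 0.05. Both directions occur within most roles, and Lig1 (2.29) and Fanci (-1.66) mark the ends.

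Among the genes that sense breaks and signal damage, 9 of 10 were tested, 3 favoured pool A, 1 favoured pool B and 5 did not pass. These are 33.3% and 11.1%, beside 18.6% and 22% of all genes, and the differences were not tested. Atm (ENSRNOG00000029773), the kinase activated by double-strand breaks, had 151, 144 and 148 CPM with pool A and 33.7, 60.8 and 42.0 CPM with pool B. The pool A libraries agreed closely with each other and all lay above the 3 pool B libraries, which spread more widely. Its log2 fold change was 1.87 ± 0.19 (SE; edgeR adjusted p 4.36e-09). Atr, the related kinase that responds to stalled replication forks, did not pass, with a log2 fold change of 0.08 ± 0.31 (SE). The count of Atm per count of Atr, a ratio within each library that no scaling touches, was 8.09, 6.50 and 7.63 with pool A and 1.38, 3.96 and 1.85 with pool B, a 3.41-fold difference. These ranges did not overlap.

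Rad1, a subunit of the ring-shaped clamp that loads onto damaged DNA, had 7.33, 15.0 and 11.9 CPM with pool A and 4.43, 3.29 and 2.65 CPM with pool B. The pool A values were all higher, on at most 38 counts per library. Its log2 fold change was 1.84 ± 0.54 (SE; edgeR adjusted p 0.00774), and the adjusted p rose to 0.0695 without pool A replicate 2. The clamp partner Rad9a did not pass (0.35 ± 0.22), and counts of Rad9a per count of Rad1 were between 3.34 and 6.37 with pool A and between 7.69 and 16.6 with pool B. Hus1, the remaining clamp subunit, is not among the genes taken by name; it was higher with pool A by 0.98 ± 0.31 (SE, log2), and its adjusted p of 0.0115 was 0.0611 without pool B replicate 2. The ratio of Rad1 to Hus1 overlapped between the pools. Tp53bp1, a chromatin reader that gathers at breaks, was slightly higher with pool A, by 0.40 ± 0.14 (SE, log2; edgeR adjusted p 0.0211). That call was lost without pool A replicate 1 (0.0794), without pool B replicate 1 (0.0991) and with total counts as the only scaling (0.180).

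Transcripts of the MRE11-RAD50-NBN complex, which holds and trims broken ends, gave unequal values. Mre11a had 39.6, 41.1 and 45.5 CPM with pool A and 71.9, 75.6 and 92.7 CPM with pool B (log2 fold change -0.79 ± 0.19, SE; edgeR adjusted p 0.00151). Rad50 did not pass (0.15 ± 0.17). The Mre11a to Rad50 ratio of counts was 0.543, 0.568 and 0.569 with pool A and 1.01, 1.02 and 1.17 with pool B, a narrow spread within each pool and no overlap between them. Nbn held 11, 14 and 9 counts with pool A and 5, 0 and 9 with pool B, which was too few to test.

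Of 13 homologous recombination genes, 11 were tested, 3 favoured pool A, 3 favoured pool B and 5 lay between -0.34 and 0.34 without passing. These are 27.3% on each side, beside 18.6% and 22% of all genes, and the difference was not tested. Rad52 (a mediator that anneals complementary strands) had 71.1, 78.3 and 84.1 CPM with pool A and 34.8, 24.1 and 36.3 CPM with pool B. Every pool A library was over every pool B library. Its log2 fold change was 1.42 ± 0.21 (SE; edgeR adjusted p 2.69e-06). Brca1, which promotes end resection and recombination, was higher with pool A by 0.71 ± 0.19 (SE, log2; edgeR adjusted p 0.00347), with 66.5, 101 and 101 CPM against 66.5, 56.9 and 56.4 CPM. Pool A replicate 1 and pool B replicate 1 were almost level for this gene.

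The 3 recombination genes taken by name that favoured pool B were Rad51d, Rad54l and Rad51ap1. Rad51d, which helps build the filament that invades the intact copy, had 14.4, 5.93 and 5.96 CPM with pool A and 24.2, 23.0 and 37.1 CPM with pool B. Pool A replicate 1 stood above the other pool A libraries but still below all pool B libraries. Its log2 fold change was -1.51 ± 0.38 (SE; edgeR adjusted p 0.00193), and without pool A replicate 1 it was -2.10. Rad54l, a motor protein that assists strand exchange, and Rad51ap1, which promotes the same step, had log2 fold changes of -0.87 ± 0.33 and -0.61 ± 0.21 (SE; edgeR adjusted p 0.0354 and 0.0184). The Rad54l call was lost without pool A replicate 1, pool A replicate 2 or pool B replicate 3 (0.0896, 0.162 and 0.245) and with upper-quartile scaling (0.0636). That of Rad51ap1 was lost without pool A replicate 1 or pool B replicate 2 (0.130 and 0.133) and with upper-quartile scaling (0.0502). Brca2, a mediator of strand exchange, did not pass (-0.34 ± 0.16), although it did with total counts alone (0.0298).

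Partners of recombination proteins were compared as ratios within libraries. Brca1 per count of its binding partner Bard1 was between 1.42 and 1.86 with pool A and between 1.22 and 1.47 with pool B, so the ranges overlapped. Bard1 itself did not pass (0.43 ± 0.20), except with upper-quartile scaling (edgeR adjusted p 0.0354). Brca2 per count of Palb2, the bridge between both BRCA proteins, was between 7.65 and 13.9 with pool A and between 14.7 and 27.1 with pool B, without overlap. Palb2 alone did not pass (0.59 ± 0.42). The ratio of Rad51d to Xrcc2, a fellow paralog (-0.10 ± 0.37), overlapped between the pools. Rad51c, with between 0 and 20 counts in a library, could not be tested, and the germline gene Rad51ap2 was at 0 in all 6 libraries.

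**Figure D3:**
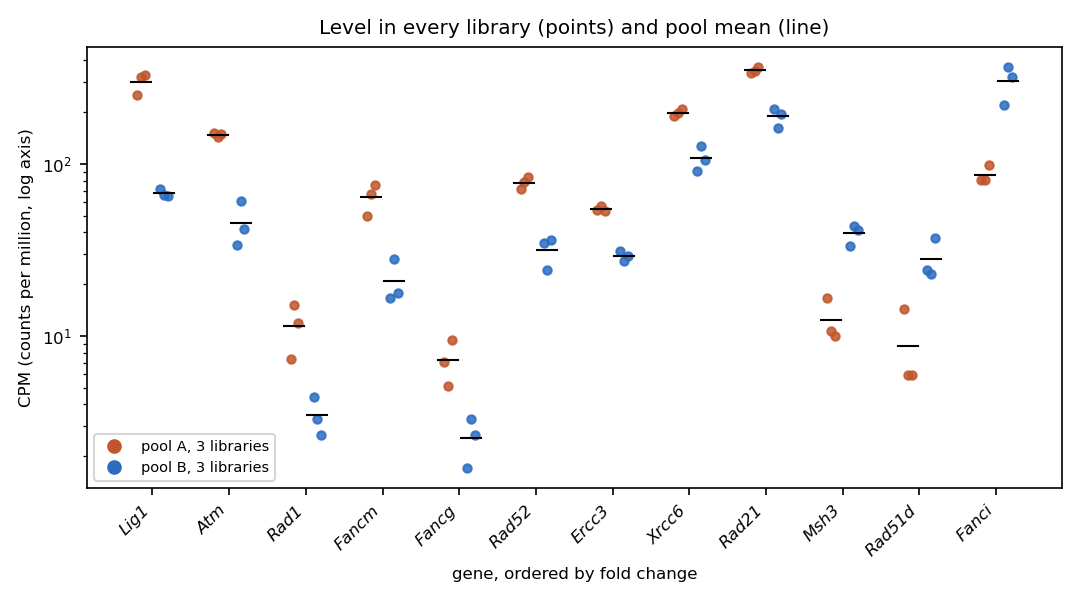
CPM in each library (points, log axis) and pool mean (line) for 12 of the 13 repair genes with an adjusted p under 0.05, at least a 2-fold difference and CPM ranges that do not overlap. The 9 genes on the left are higher with pool A and the 3 on the right (Msh3, Rad51d, Fanci) are higher with pool B.

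Base excision, single-strand break repair and ligation gave the largest difference of the whole set. Lig1 (ENSRNOG00000014193), the ligase that seals replication fragments and long repair patches, had 250.4, 319 and 330.3 CPM with pool A and 71.6, 66.3 and 64.7 CPM with pool B. All 3 pool A libraries exceeded the highest pool B library more than 3-fold. The log2 fold change was 2.29 ± 0.15 (SE; edgeR adjusted p 1.42e-12), or 4.90-fold. Lig3, the ligase of single-strand break repair and of mitochondria, was also higher with pool A, by 0.97 ± 0.25 (SE, log2; edgeR adjusted p 0.00232). Its scaffold Xrcc1 went the other way, with 60.0, 73.6 and 112 CPM in pool A and 142, 149 and 130.1 CPM in pool B. The log2 fold change of Xrcc1 was -0.65 ± 0.18 (SE; edgeR adjusted p 0.00446), and without pool A replicate 1 its adjusted p was 0.0531.

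XRCC1 and LIG3 proteins form a stable pair, yet counts of Xrcc1 per count of Lig3 were 1.21, 1.65 and 2.08 with pool A and 6.53, 6.83 and 3.34 with pool B. The ranges did not overlap, and the ratio was 3.30-fold higher with pool B. The gap polymerase Polb did not pass (0.53 ± 0.44), and its pool B libraries spread from 4.92 to 19.7 CPM. The other gene of this role lay at -0.10.

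Of the 8 nucleotide excision genes taken by name, 3 favoured pool A and 5 lay between -0.16 and 0.55 without passing, where 18.6% of all genes favoured pool A and 22% pool B. Of 17 further genes of this pathway, 3 favoured pool A and 4 favoured pool B. Ercc3, the XPB translocase of the general transcription factor TFIIH, had 53.7, 56.9 and 53.3 CPM with pool A and 31.4, 27.4 and 29.1 CPM with pool B. Both sets of libraries were tight, and the log2 fold change was 1.04 ± 0.22 (SE; edgeR adjusted p 0.000325). Ercc5, the nuclease that cuts on the 3′ side of the lesion, and Rad23b, which stabilises the damage sensor XPC, were higher with pool A by 0.86 ± 0.21 and 0.86 ± 0.15 (SE, log2; edgeR adjusted p 0.00173 and 4.55e-05). Ercc2, the XPD helicase that sits with XPB in TFIIH, did not pass (-0.16 ± 0.16). Counts of Ercc2 per count of Ercc3 were between 1.54 and 1.89 with pool A and between 3.27 and 5.04 with pool B, without overlap. The nuclease subunit Ercc1 had a log2 fold change of 0.55 ± 0.35 (SE) without passing.

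In mismatch repair, MSH6 serves to recognise single mismatches and MSH3 longer loops. Of 7 genes, 6 were tested, 1 favoured each pool and 4 did not pass, which is 16.7% on each side and near the 18.6% and 22% of all genes. Msh6 had 44.2, 41.9 and 52.7 CPM with pool A and 31.0, 27.4 and 21.9 CPM with pool B (log2 fold change 0.93 ± 0.23, SE; edgeR adjusted p 0.00200). Msh3 had 16.5, 10.7 and 10.04 CPM with pool A and 33.4, 43.8 and 41.2 CPM with pool B (log2 fold change -1.50 ± 0.29, SE; edgeR adjusted p 0.000143). Neither gene's libraries overlapped between the pools.

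Pms2, a MutL subunit that acts after the mismatch is recognised and is not among the genes taken by name, was higher with pool B, with a log2 fold change of -0.55 ± 0.18 (SE; edgeR adjusted p 0.0175). That call was lost with upper-quartile scaling (0.0528) and without pool A replicate 1, pool A replicate 2 or pool B replicate 2 (0.0586, 0.0664 and 0.0837). The meiotic gene Msh4 had at most 3 counts in a library and was not tested.

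End joining rests on the Ku heterodimer, encoded by Xrcc6 (Ku70) and Xrcc5 (Ku80), and on the kinase it recruits, encoded by Prkdc. Xrcc6 (ENSRNOG00000006392) had 191, 198 and 208 CPM with pool A and 91.3, 126 and 106 CPM with pool B. The log2 fold change was 1.04 ± 0.15 (SE; edgeR adjusted p 2.57e-06), and no pool B library reached a pool A library. Xrcc5 had 32.6, 33.2 and 39.5 CPM with pool A and 57.3, 59.1 and 57.1 CPM with pool B (log2 fold change -0.58 ± 0.21, SE; edgeR adjusted p 0.0268). Prkdc had 79.2, 64.9 and 80.6 CPM with pool A and 132, 141 and 146 CPM with pool B (log2 fold change -0.75 ± 0.16, SE; edgeR adjusted p 0.000325). Both were thus on the pool B side, opposite to Xrcc6.

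Ratios within a library need no scaling, but they show only how the genes shifted relative to each other, not the direction of each. Counts of Xrcc5 per count of Xrcc6 were 0.171, 0.168 and 0.190 with pool A and 0.627, 0.468 and 0.541 with pool B, a 3.08-fold difference. Counts of Prkdc per count of Xrcc6 were 0.415, 0.327 and 0.388 with pool A and 1.44, 1.11 and 1.38 with pool B, a 3.48-fold difference. The edgeR call on Xrcc5 alone was lost with upper-quartile scaling (adjusted p 0.0691) and in 5 of the 6 fits that left out a library, where it was between 0.0525 and 0.0821; the exception was pool A replicate 3 (0.0419). The ligase gene Lig4 did not pass (0.37 ± 0.56), and its partner Xrcc4, with between 1 and 20 counts in a library, was not tested.

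**Figure D4:**
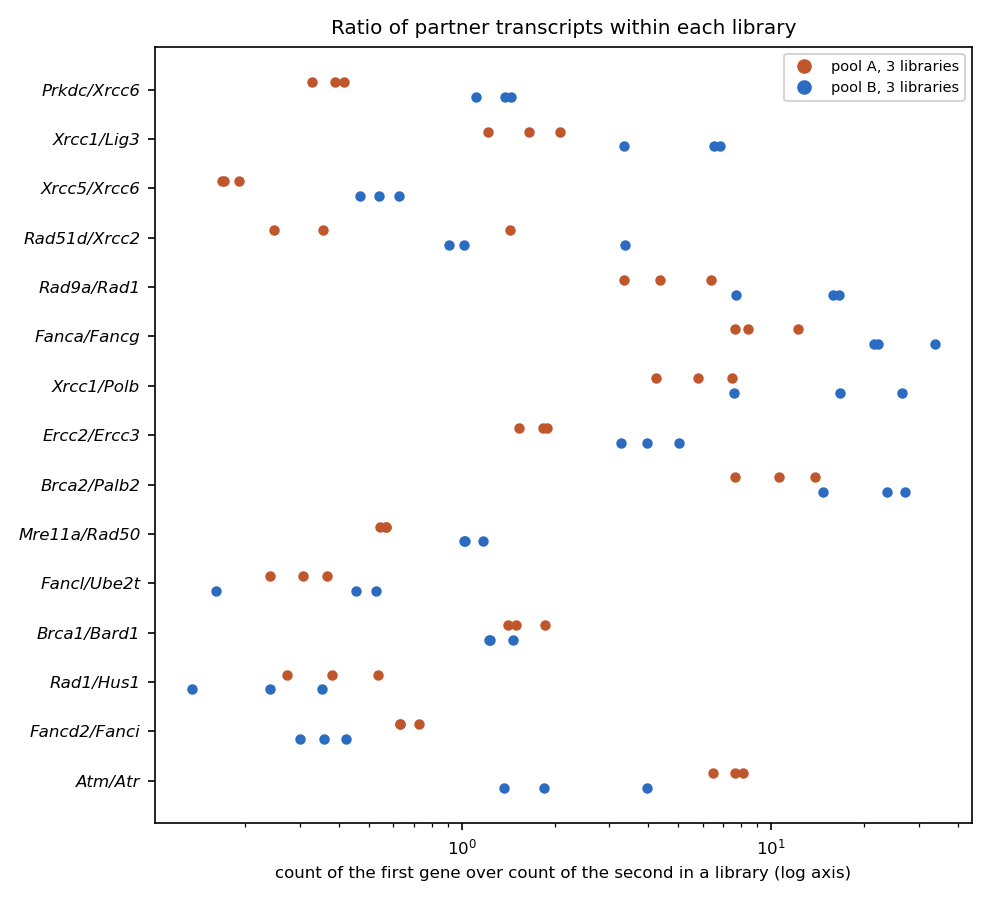
Count of the first gene over count of the second within each library (log axis) for 15 of the 19 compared pairs of partner genes, with pool A and pool B libraries as points. The ranges do not overlap for 11 of these, among them Xrcc5/Xrcc6, Prkdc/Xrcc6, Xrcc1/Lig3 and Atm/Atr.

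Over the 19 pairs of partners that could be compared, 14 had ratios that did not overlap between the pools, and 12 differed at least 2-fold. Each of the 14 had an exact two-sided permutation p of 0.1, the smallest that 3 against 3 libraries allow, and 0.136 after adjustment over the 19 pairs. This permutation test therefore cannot pass 0.05 with so few libraries. Of all single genes tested, 49.1% had CPM ranges that did not overlap.

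Fanconi anaemia genes, which act on crosslinked DNA strands, numbered 10. Of these, 9 were tested, 2 favoured pool A, 3 favoured pool B and 4 lay between -0.35 and 0.35 without passing. The shares of 22.2% and 33.3% stand beside 18.6% and 22% of all genes and were not tested against them. Fanci (ENSRNOG00000016689), a subunit of the paired clamp that is marked with ubiquitin at a crosslink, had 80.3, 80.7 and 98.8 CPM with pool A and 221, 365 and 322 CPM with pool B. All pool B libraries were more than 2-fold above all pool A libraries, and the log2 fold change was -1.66 ± 0.16 (SE; edgeR adjusted p 3.48e-09). Fancd2, which completes that clamp, was on the same side with -0.74 ± 0.17 (SE; edgeR adjusted p 0.00110). Its shift was the smaller: counts of Fancd2 per count of Fanci were between 0.632 and 0.730 with pool A and between 0.300 and 0.421 with pool B. Fancc, of the core complex, had -0.79 ± 0.27 (SE; edgeR adjusted p 0.0217), which was 0.0974 without pool A replicate 1 and 0.0716 or 0.0530 when pool B replicate 1 or 2 was left out.

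On the pool A side, Fancm, the motor protein that anchors the core complex to DNA, had 49.9, 66.4 and 75.6 CPM with pool A and 16.7, 27.9 and 17.8 CPM with pool B. No library of either pool overlapped, and its log2 fold change was 1.79 ± 0.25 (SE; edgeR adjusted p 1.02e-06). Fancg, of the core complex, had 7.05, 5.14 and 9.41 CPM with pool A and 1.70, 3.29 and 2.65 CPM with pool B. The log2 fold change of 1.65 ± 0.64 (SE; edgeR adjusted p 0.0386) rested on 5 to 7 counts per pool B library, and leaving out any single library raised the adjusted p to between 0.0587 and 0.143. The Fancg call was also lost with total counts as the only scaling (0.0611), without the expression filter (0.0664) and with limma-voom (0.0575). Fanca did not pass (0.21 ± 0.19), and the Fanca to Fancg ratio was between 7.65 and 12.2 with pool A and between 21.4 and 33.8 with pool B. Fancl, the ubiquitin ligase, and Ube2t, its ubiquitin-conjugating partner, did not pass (0.35 ± 0.57 and 0.57 ± 0.31), and their ratio overlapped.

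The name rule also took 5 genes whose main work lies elsewhere. Rad21, the cleavable subunit of the cohesin ring that holds sister chromatids together, had 337, 346 and 365 CPM with pool A and 209, 161 and 196 CPM with pool B. The pools did not overlap, and the log2 fold change was 1.03 ± 0.14 (SE; edgeR adjusted p 6.69e-07). The others did not pass or were not tested, and the germline cohesin gene Rad21l1 was at 0 throughout, where 3 counts, the limit a count of 0 allows, are between 0.814 and 1.64 CPM. The ubiquitin ligase gene Rad18, alone in its role of post-replication repair, did not pass (0.03 ± 0.27). In all, 8 of the 65 genes were not tested.

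Genes of the same pathways that carry other names showed shares close to those of all genes. Of 94 such genes in the table, 91 were tested, 19 favoured pool A (20.9%) and 15 favoured pool B (16.5%), with a median log2 fold change of 0.09. The balance depended on the scaling: with total counts alone 16 favoured pool A and 20 pool B, and with upper-quartile factors 22 and 12. Over all genes the pool A side held 45.8% of the calls in the reported fit, and 36.9% and 52.8% under those 2 scalings. Damage signalling gave 7 of 16 on the pool A side and 1 on the other. Crosslink repair accessory genes gave 1 of 10 on the pool A side and 4 on the other. Beside these stand the 18.6% and 22% of all genes, and no difference of either group from these shares, or between the groups, was tested.

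Rnf168, a ubiquitin ligase that marks histones around breaks and so gathers 53BP1, had 147, 144 and 190.1 CPM with pool A and 30.3, 29.0 and 37.5 CPM with pool B. The log2 fold change of 2.44 ± 0.18 (SE; edgeR adjusted p 9.61e-12) was larger than that of Tp53bp1 or Atm. Tipin, of the replication fork protection complex, Mad2l2, of translesion synthesis, and Swi5, a recombination cofactor, had log2 fold changes of 2.05 ± 0.48, 2.01 ± 0.54 and 1.75 ± 0.34 (SE). In the other direction, Tdp1, which frees trapped topoisomerase from DNA ends, had 4.34, 5.14 and 4.71 CPM with pool A and 31.4, 50.4 and 43.1 CPM with pool B. The log2 fold change was -2.98 ± 0.34 (SE; edgeR adjusted p 3.30e-08), beyond that of any gene taken by name. Eme1, a subunit of a nuclease for joined DNA molecules, Rpa3, of the single-strand binding protein RPA, and Dclre1a, a crosslink repair nuclease, had -2.09 ± 0.23, -2.04 ± 0.32 and -1.93 ± 0.17 (SE).

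Several repair genes start close to another gene on the opposite strand, so that both are transcribed away from a shared stretch of DNA. In RefSeq's annotation of the GRCr8 assembly, 12 tested repair genes had such a neighbour within 1000 bases that was tested too. In 6 of these the repair gene passed and the neighbour did not, in 1 both passed in opposite directions, in 5 neither passed, and in none did both pass in the same direction. Of all genes tested, 40.6% passed, and no difference from that share was tested. Lig1 (2.29) lay beside Zswim9 (-0.54, adjusted p 0.153), and Atm (1.87) beside Npat (-0.24, adjusted p 0.409). The count of Lig1 per count of Zswim9 was 18.1, 17.1 and 16.5 with pool A and 2.53, 1.98 and 2.85 with pool B, a 7.09-fold difference. That of Atm per count of Npat was 4.98, 3.53 and 2.82 with pool A and 0.604, 1.08 and 0.861 with pool B, a 4.46-fold difference.

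Xrcc6 (1.04) beside Desi1 (0.31), Rad1 (1.84) beside Brix1 (0.58), Brca1 (0.71) beside Nbr1 (-0.30) and Fancd2 (-0.74) beside Emc3 (-0.12) had ratios that did not overlap either. This made 6 of the 11 ratios that could be compared, where 49.1% of all single genes had CPM ranges without overlap. The exact two-sided permutation p of each was 0.1, the smallest possible, and 0.183 after adjustment over the 11. These neighbours were looked up after the fold changes had been seen.

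The DNA in front of Atm and Xrcc6 is shown because each has such a neighbour and the transcripts of the pair were recovered unequally. The distance between the starts was not worked out, so a stretch may reach past the start of the neighbour. The sequences are the 250 bases before the RefSeq start of each gene, 5′ to 3′ on its own strand, in GRCr8: chr8:62828630-62828879 on the minus strand for Atm and chr7:115422934-115423183 on the plus strand for Xrcc6. Capitals mark matches, on either strand, to GGGCGG (the GC box), CCAAT (the CCAAT box) or CCGGAAG (the core recognised by ETS factors).
Atm: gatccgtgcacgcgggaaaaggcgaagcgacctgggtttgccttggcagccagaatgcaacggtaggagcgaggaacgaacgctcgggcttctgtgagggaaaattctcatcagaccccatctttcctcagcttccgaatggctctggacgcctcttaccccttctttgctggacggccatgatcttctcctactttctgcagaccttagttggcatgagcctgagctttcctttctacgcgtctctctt
Xrcc6: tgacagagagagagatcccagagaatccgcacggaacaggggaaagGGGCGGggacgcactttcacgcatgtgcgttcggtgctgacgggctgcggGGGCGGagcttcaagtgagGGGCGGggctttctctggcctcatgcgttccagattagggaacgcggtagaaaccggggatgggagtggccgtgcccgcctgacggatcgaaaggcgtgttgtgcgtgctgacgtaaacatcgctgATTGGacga
The Xrcc6 stretch holds 3 GC boxes and 1 CCAAT box read on the other strand, and the Atm stretch holds none of these letters. Of 51 repair genes with a listed promoter, 31 had a GC box (60.8%), 22 a CCAAT box (43.1%) and 10 an ETS core (19.6%). All 27457 listed promoters of the same length gave 32.4%, 34.3% and 7.74%. Those include promoters of genes with too few counts to be tested here, and the differences in share were not tested. These are letter matches, and the pull-down does not measure binding to DNA.

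**Figure D5:**
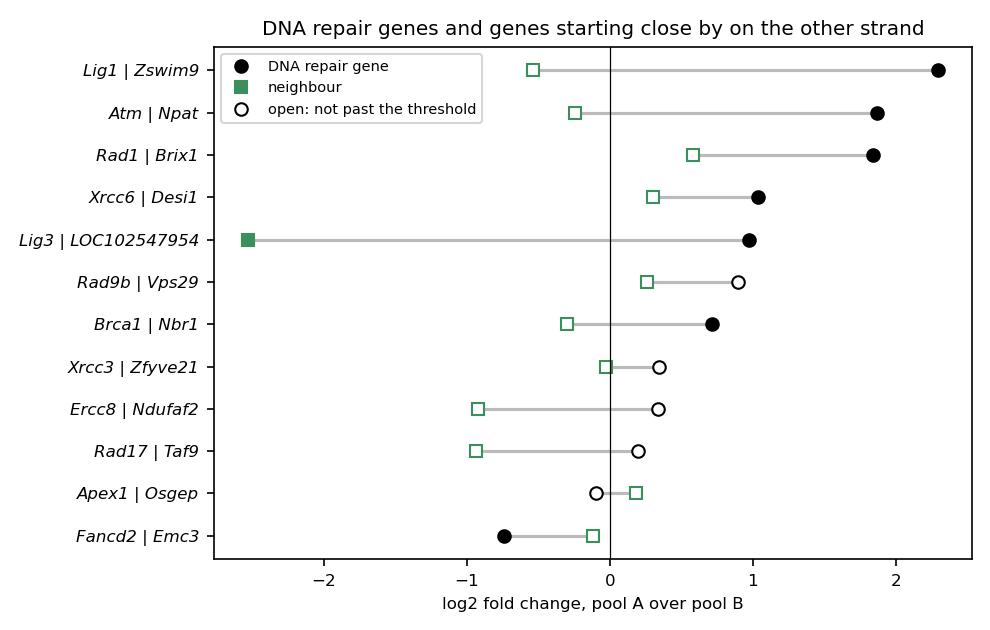
Log2 fold change of pool A over pool B for 12 DNA repair genes (circles) and the gene that starts within 1000 bases on the other strand (squares); filled symbols passed an adjusted p under 0.05. Lig1, Atm, Rad1, Xrcc6 and Brca1 lie to the right of their neighbours, and Fancd2 lies to the left of Emc3.

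Rows next to a repair gene in the table were looked at as well, since how reads on neighbouring or overlapping genes were divided is not given in the sources used here. The 27 repair genes that passed had 54 adjacent rows, of which 34 were tested. The neighbour had the same sign in 22 and the opposite sign in 12, and 12 of the 34 passed the threshold, 6 in the same direction as the repair gene and 6 in the opposite, where 40.6% of all genes passed. Fancg lay beside Vcp, which was higher with pool A by 3.16 (log2) on a mean of 1229 counts per library, against 14.5 for Fancg. Rad52 lay beside Wnk1 (0.74) and Rad21 beside Utp23 (1.57), all past the threshold on the same side. In contrast, Tp53bp1 (0.40) lay between Tubgcp4 (1.32) and Map1a (-3.23), and Msh6 (0.93) lay beside Fbxo11 (-1.70). The part of adjacent transcripts in the values of Fancg, Rad52 and Rad21 was not tested.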

How the data were processed

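RNA retrieved with 2 oligonucleotide pools (3 libraries each) was analysed. The authors deposited whole-number counts for 32883 genes, made with STAR and featureCounts per the submitters' processing notes; the build, annotation, strand setting and filters are not given in the sources used here. The deposited mean of the counts per pool (a signal column) was not used. Libraries were strand-specific and paired per the labels' protocols. The labels do not say that libraries came from separate cultures, so p-values measure the spread between these libraries.

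Counts were fitted with edgeR 4.0.16 (R 4.3.3): TMM scaling, the package's expression filter by pool (minimum count 10), the quasi-likelihood test with pool as the only term on all 6 libraries, two-sided, with Benjamini-Hochberg adjustment over 11582 genes and a threshold of 0.05. Log2 fold changes divide pool A by pool B, standard errors come from the F statistic, and CPM uses total counts, so a ratio of CPM can differ slightly from the fitted fold. The fit was tested on simulated data. Partner and neighbour ratios are raw counts within a library, averaged as logs. No molecular identifiers are stated, so counting limits cover counting error only.

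The members, role groups and lists were chosen with earlier results of these data known. Full values are given for members past the threshold with at least a 2-fold difference, CPM ranges that do not overlap and a mean of at least 10 counts (up to 12 per direction). Other members past the threshold are named with their fold change, those that did not pass where they belong to a listed pair or are alone in their role, and from the further list the 4 largest per direction and the partner genes. Other members are counted, and some members and neighbouring genes are not reported here by name. CPM of Mre11a, Brca1, Xrcc1, Msh6, Xrcc5 and Prkdc, the values of Nbn, Rad51c, Msh4 and Xrcc4 and some rows of neighbouring genes were named after they were seen. Of 23 listed pairs, 4 were not compared. Of 95 genes of the further list, 94 were in the table.

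Same-numbered libraries did not deviate together (r of 0.0403, -0.0213 and 0.0175), so they do not pair the samples. Libraries of a pool differed by more than sampling noise (chi-square per degree of freedom between 5.86 and 20.7 for 2 libraries). Alternatives were other scalings, other filters, DESeq2 1.42.0, limma-voom (limma 3.58.1), a replicate block and leaving out each library.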

Additional observations from a re-analysis of the deposited data

How the results depend on the processing

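With total counts as the only scaling the median over all genes moved by -0.14 and with upper-quartile factors by 0.10. The repair genes' median was -0.0205 with total counts, but relative to all genes it was 0.12 in the reported fit, 0.11 with total counts and 0.13 with upper-quartile factors. The number higher with pool B was 7 at an adjusted p under 0.01 and between 6 and 11 in the fits without 1 of the libraries. Under the other scalings, filters and tools 14 to 16 genes were higher with pool A and 8 to 12 with pool B. With the replicate number as a block they were 15 and 11, and those of the further list 19 and 14; of the 70 genes refitted singly, Fancg alone changed its call (adjusted p 0.0634), and the numbers are no pairing here. Of 971 refits of these genes, 933 left the call as reported, 36 lost it, 2 gained it and 0 turned a call to the other pool, all within 12 genes; the cause was not tested. The filter of at least 10 counts in every library left 50 of the 57 genes, and depth limits statements on those with fewer counts.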
